A study of Mus musculus with 4 samples.

Results

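The 10 marker genes of radial glia followed here were *Fabp7*, *Slc1a3*, *Vim*, *Nes*, *Pax6*, *Sox9*, *Ptprz1*, *Aldoc*, *Tnc* and *Prom1*. They were picked by gene name from a table of 56883 genes, and all 10 were present in it and passed the expression filter that left 14323 genes for testing. RNA was sequenced from tdTomato-positive cells sorted at E14.5 (E, embryonic day) from the mouse basal telencephalon, the ventral forebrain that generates cortical interneurons. Control embryos carried *Sst-Cre* and a Cre-dependent tdTomato reporter. *Dnmt1* KO embryos carried both of these and, in addition, *Dnmt1* loxP alleles (*Sst-Cre/tdTomato/Dnmt1 loxP2*). Each genotype had 2 libraries, each made from cells pooled from several embryos of undetermined sex on a C57BL/6J background.

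*Sst-Cre* is driven by the somatostatin gene, which is switched on in postmitotic interneurons, so both the deletion and the red label start after a cell has left the cycle. The label on the samples is *Sst* interneuron, and the libraries carried the marker genes of such cells. *Sst* itself stood at 5580 and 5963 normalized counts in control against 8303 and 7825 in *Dnmt1* KO libraries. A normalized count is the number of reads on a gene divided by 1 scaling factor for the library. *Dnmt1* was at 2238 and 2341 normalized counts in control and at 2164 and 2210 in *Dnmt1* KO libraries (log2 fold change -0.07, limma's adjusted p = 0.461). These values cover the whole gene, so removal of the floxed exons alone cannot be read from them.

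Radial glia are the neural stem cells of the embryonic forebrain. Their somata line the ventricle, their long fibres reach the outer surface of the brain and guide migrating neurons, and their divisions give rise to neurons and later to astrocytes and ependymal cells. Their genes fall into structural proteins of the fibre (*Vim*, *Nes*), proteins of lipid, glutamate and sugar handling shared with astrocytes (*Fabp7*, *Slc1a3*, *Aldoc*), transcription factors of the progenitor state (*Pax6*, *Sox9*), and proteins of the cell surface and the surrounding matrix (*Ptprz1*, *Tnc*, *Prom1*).

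All 10 radial glia markers were lower in *Dnmt1* KO libraries, and in none of them did the libraries of the genotypes overlap. The *Dnmt1* KO level ranged from 36.9% of the control level for *Aldoc* to 75.8% for *Ptprz1*. The median log2 fold change of the 10 genes was -0.81, against -0.0033 over all genes tested. At an adjusted p below 0.05 in limma, 10 of the 10 were called lower, where 8.99% of all genes tested were called lower and 8.30% higher. Both *Dnmt1* KO libraries lay below both control libraries for 29.0% of all genes tested. On the recovered reads, edgeR called all 10 lower (9.09% of all genes tested), as did DESeq2 (4.80%). In limma without its trend of variance over expression, no marker and no other gene was called, and the markers' adjusted p ran from 0.0592 to 0.143, with an unadjusted p below 0.05 for all 10 and for 3339 genes in all. For 1 gene with 2 libraries against 2, the smallest two-sided p of an exact permutation test is 0.333, so the calls rest on the fit across all genes. Because cells were pooled, the p-values measure the spread between these libraries, which may be technical.

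Summed over the 10 genes, the normalized counts came to 11697 and 12014 in control against 6362 and 6695 in *Dnmt1* KO libraries. The *Dnmt1* KO sum was thus 55.1% of the control sum, and both *Dnmt1* KO libraries lay far below both controls. The markers took 0.156% and 0.162% of the reads in control libraries and 0.0833% and 0.0879% in *Dnmt1* KO libraries. In RNA from a bulk sort, a smaller share of radial glia and less of these RNAs per cell cannot be told apart.

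**Figure D1:**
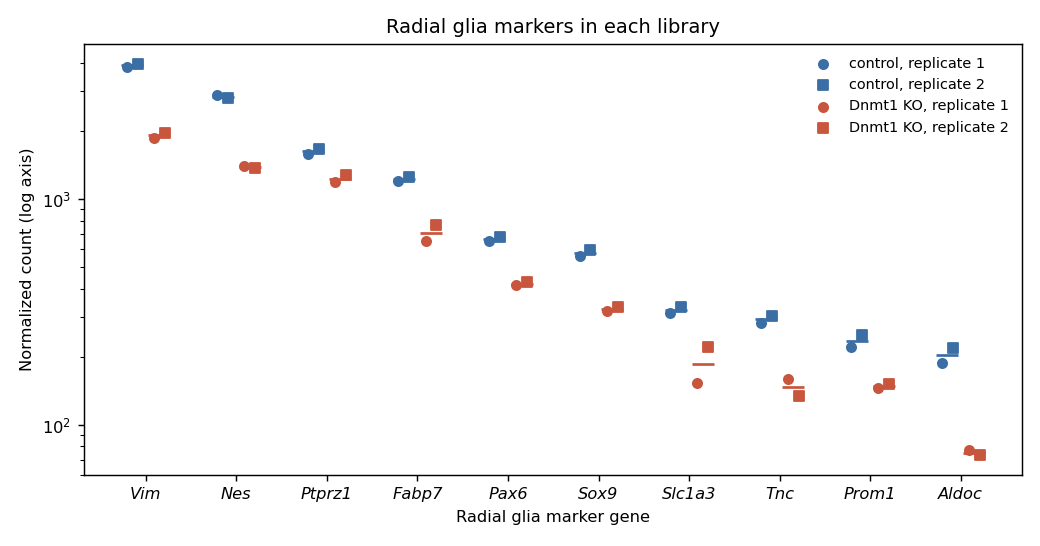
Normalized count (log axis) of each radial glia marker in every library. Circles are replicate 1, squares replicate 2, blue is control, red is *Dnmt1* KO, and the dashes are genotype means. For each of the 10 genes both red points lie below both blue points.

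Promoter sequences are given for 3 markers, because DNMT1 acts on cytosines in CpG dinucleotides. Among the 5 markers whose main transcript begins at the outermost annotated start of the gene (these and *Pax6* and *Sox9*), *Tnc* fell the most, *Ptprz1* fell the least and *Fabp7* was the most abundant per kilobase. Each window holds the 250 bases before the start of the GENCODE canonical transcript, read 5′ to 3′ on the strand of the gene from the GRCm39 genome, with CpG dinucleotides in capitals. The windows are chr4:63965444-63965693 (minus strand) for *Tnc*, chr6:22875108-22875357 (plus strand) for *Ptprz1* and chr10:57660706-57660955 (plus strand) for *Fabp7*.
Tnc: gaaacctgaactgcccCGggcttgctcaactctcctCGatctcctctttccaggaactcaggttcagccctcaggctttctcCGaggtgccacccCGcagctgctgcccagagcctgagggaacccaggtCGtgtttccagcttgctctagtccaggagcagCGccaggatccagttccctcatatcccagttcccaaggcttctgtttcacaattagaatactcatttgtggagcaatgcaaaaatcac
Ptprz1: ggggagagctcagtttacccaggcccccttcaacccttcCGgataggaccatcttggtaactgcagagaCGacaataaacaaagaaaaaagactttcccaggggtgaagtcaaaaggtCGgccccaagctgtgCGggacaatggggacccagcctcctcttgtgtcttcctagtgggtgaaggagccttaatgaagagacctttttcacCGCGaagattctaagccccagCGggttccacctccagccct
Fabp7: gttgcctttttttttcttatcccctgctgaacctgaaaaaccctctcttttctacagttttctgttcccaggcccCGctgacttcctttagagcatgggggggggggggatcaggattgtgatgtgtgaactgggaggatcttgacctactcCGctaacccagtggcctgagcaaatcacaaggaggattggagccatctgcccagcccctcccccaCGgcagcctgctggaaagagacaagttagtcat

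These windows held few CpG dinucleotides, with 6 for *Tnc*, 7 for *Ptprz1* and 3 for *Fabp7*. Over all 10 markers the median was 6.5, against 13 over the 12278 windows of protein-coding genes tested, of which the middle part, between the quartiles, ranged from 8 to 20. *Aldoc*, with 1 CpG, and *Slc1a3*, with 2, were the poorest, and *Nes* with 15, *Pax6* with 14, *Sox9* with 13 and *Vim* with 12 lay near the median. The main transcripts of *Slc1a3*, *Vim*, *Nes*, *Aldoc* and *Prom1* begin inside the annotated gene. Their windows lie within the gene in part, that of *Slc1a3* wholly, and the median of the markers includes them. *Vim* and *Nes*, near the median, and *Tnc*, with 6, fell to similar levels, and *Aldoc*, with the fewest, fell the most (log2 fold change -1.42). Whether the CpG count goes with the size of the fall was not tested. DNA methylation was not analysed here.

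Short motifs were searched on both strands of the same windows. The core TGGGAA of RBPJ, the DNA-binding partner of Notch, occurred in 4 of the 10 windows (*Fabp7*, *Ptprz1*, *Aldoc* and *Tnc*), against 21.1% of all windows. The core ACAATG bound by SOX factors occurred in 2 (*Ptprz1* and *Prom1*), against 6.46% of all windows. The motifs do not overlap in sequence, and a match describes the letters only.

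*Vim* and *Nes* encode vimentin and nestin, the intermediate filament proteins that run through the radial fibre. *Vim* (chr2:13578738-13587639, plus strand, GRCm39) was at 3827 and 3964 normalized counts in control against 1861 and 1956 in *Dnmt1* KO libraries. The groups were well apart, and the log2 fold change was -1.03 (SE 0.052, 95% interval -1.14 to -0.92, limma's adjusted p = 1.34e-08). *Nes* (chr3:87878385-87887758, plus strand) was at 2881 and 2780 in control and at 1399 and 1368 in *Dnmt1* KO libraries. Its log2 fold change was also -1.03 (SE 0.056, 95% interval -1.15 to -0.91, adjusted p = 1.82e-08). The level left was 49.0% of control for *Vim* and 48.9% for *Nes*. They are known to be expressed in blood vessels as well as in radial glia.

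Other intermediate filament genes, which neurons use, did not follow them as a group. *Ina*, encoding alpha-internexin of young neurons, was at 5037 and 5127 normalized counts in control and 5142 and 5302 in *Dnmt1* KO libraries, with a log2 fold change of 0.04 (95% interval -0.05 to 0.13). The neurofilament genes *Nefl* and *Nefm* were lower, with log2 fold changes of -0.71 and -0.44 (adjusted p = 0.000276 and 0.000755). *Gfap*, the filament gene of mature astrocytes, was at 0 in all 4 libraries.

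*Fabp7* encodes brain lipid-binding protein, a fatty acid carrier of radial glia. It lies at chr10:57660956-57664554 on the plus strand and was at 1198 and 1244 normalized counts in control and at 651 and 765 in *Dnmt1* KO libraries. The drop was larger than the distance between replicates, with a log2 fold change of -0.79 (SE 0.081, 95% interval -0.96 to -0.62, adjusted p = 8.47e-06). Its relatives *Fabp5* and *Fabp3*, fatty acid carriers that are not particular to radial glia, gave log2 fold changes of -0.08 (95% interval -0.20 to 0.04) and 0.04 (95% interval -0.27 to 0.35), and neither was called.

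*Slc1a3* encodes GLAST, the transporter that clears glutamate into radial glia and astrocytes. It lies at chr15:8663604-8741595 on the minus strand, and its normalized counts were 311 and 330 in control and 153 and 220 in *Dnmt1* KO libraries. Relative to its level, its *Dnmt1* KO libraries were the furthest apart of the 10 markers, and both lay below the controls. The log2 fold change was -0.80 (SE 0.15, 95% interval -1.12 to -0.48, adjusted p = 0.00169), and it was -0.54 without *Dnmt1* KO replicate 1 and -1.06 without *Dnmt1* KO replicate 2. Of the other transporters of its family, *Slc1a1* and *Slc1a4* were not called, with 0.10 (95% interval -0.27 to 0.47) and -0.16 (95% interval -0.42 to 0.09), and the low-count *Slc1a5* was called lower at -1.28 (adjusted p = 0.0431). *Slc1a2*, counted below with glial metabolism, was also called lower at -0.38 (limma's adjusted p = 0.00356).

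*Aldoc* encodes aldolase C, the brain form of a glycolytic enzyme, found in radial glia and astrocytes. It lies at chr11:78213619-78218889 on the plus strand and had the lowest counts of the 10 markers, with 188 and 218 in control and 76.9 and 73.2 in *Dnmt1* KO libraries. These rest on 67 to 214 reads per library. Its log2 fold change of -1.42 (SE 0.16, 95% interval -1.77 to -1.08, adjusted p = 2.25e-05) was the most negative of the 10. *Aldoa*, the ubiquitous aldolase, was at 965 and 930 in control and 756 and 750 in *Dnmt1* KO libraries and was also called lower, with a log2 fold change of -0.33 (95% interval -0.48 to -0.18).

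*Pax6* and *Sox9* encode transcription factors of neural progenitors. PAX6 governs the identity and division of radial glia, and SOX9 maintains neural stem cells and later drives glial fate. *Pax6* (chr2:105499234-105530952, plus strand) was at 648 and 679 normalized counts in control and at 414 and 427 in *Dnmt1* KO libraries. Its log2 fold change was -0.66 (SE 0.085, 95% interval -0.84 to -0.47, adjusted p = 7.96e-05). *Pax6* is overlapped on the other strand by *Pax6os1* and *Elp4*, and although the library kit keeps the strand of the RNA, whether reads were counted by strand is not given in the sources used here. The same limit holds for *Fabp7*, *Slc1a3*, *Vim*, *Sox9*, *Tnc* and *Prom1*, each overlapped on the other strand by a long noncoding RNA gene, and not for *Nes*, *Ptprz1* and *Aldoc*. *Slc1a3* and *Prom1* are also overlapped on their own strand, by *Gm37310* and *Gm42716*, which counting by strand would not separate. *Sox9* (chr11:112673009-112678586, plus strand) was at 557 and 593 in control and at 317 and 332 in *Dnmt1* KO libraries. Its log2 fold change was -0.82 (SE 0.093, 95% interval -1.02 to -0.63, adjusted p = 1.95e-05). *Sox8*, its nearest relative, was at 138 and 159 in control and 77.9 and 141 in *Dnmt1* KO libraries, where the groups overlapped and no call was made. *Pax2*, *Pax3*, *Pax8* and *Sox10* were under the expression filter.

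*Ptprz1* encodes a receptor tyrosine phosphatase of the radial glial surface. It lies at chr6:22875358-23054236 on the plus strand and was at 1585 and 1655 normalized counts in control and at 1187 and 1270 in *Dnmt1* KO libraries. The groups did not overlap, but the change was the smallest of the 10, with a log2 fold change of -0.40 (SE 0.064, 95% interval -0.54 to -0.26, adjusted p = 0.000463). *Tnc* encodes tenascin-C, a matrix glycoprotein of the stem cell niche, at chr4:63878014-63965443 on the minus strand. It was at 283 and 301 in control and at 159 and 134 in *Dnmt1* KO libraries, a log2 fold change of -0.99 (SE 0.13, 95% interval -1.27 to -0.71, adjusted p = 9.57e-05). *Prom1* encodes prominin-1 (CD133), a protein of apical membrane protrusions, at chr5:44150962-44259395 on the minus strand. It was at 220 and 249 in control and at 145 and 151 in *Dnmt1* KO libraries, a log2 fold change of -0.66 (SE 0.13, 95% interval -0.94 to -0.37, adjusted p = 0.00305). *Prom1* had the highest adjusted p of the 10. The relative *Tnr*, encoding tenascin-R, was not called, with a log2 fold change of 0.25 (95% interval 0.01 to 0.50).

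PTPRZ1 binds pleiotrophin and midkine, which are secreted by progenitors, and cell adhesion molecules of neurons, while tenascin-C binds integrins and some of the same adhesion molecules. Of 11 such partners, 2 were called lower and 4 higher. The 2 growth factors were those that fell. *Mdk* was at 566 and 516 normalized counts in control and at 272 and 315 in *Dnmt1* KO libraries (log2 fold change -0.88, adjusted p = 2.96e-05), and the change of *Ptn* was -0.74 (adjusted p = 3.65e-06). The neuronal adhesion genes *Ncam1*, *Nrcam* and *Cntn1* rose, with log2 fold changes of 0.36, 0.49 and 0.34 (adjusted p = 1.49e-05, 2.71e-05 and 0.0194), as did the low-count integrin gene *Itga8*, with 1.21 (adjusted p = 0.0354). *L1cam* was at 2281 and 2172 in control and 2058 and 2279 in *Dnmt1* KO libraries, and was not called.

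**Figure D2:**
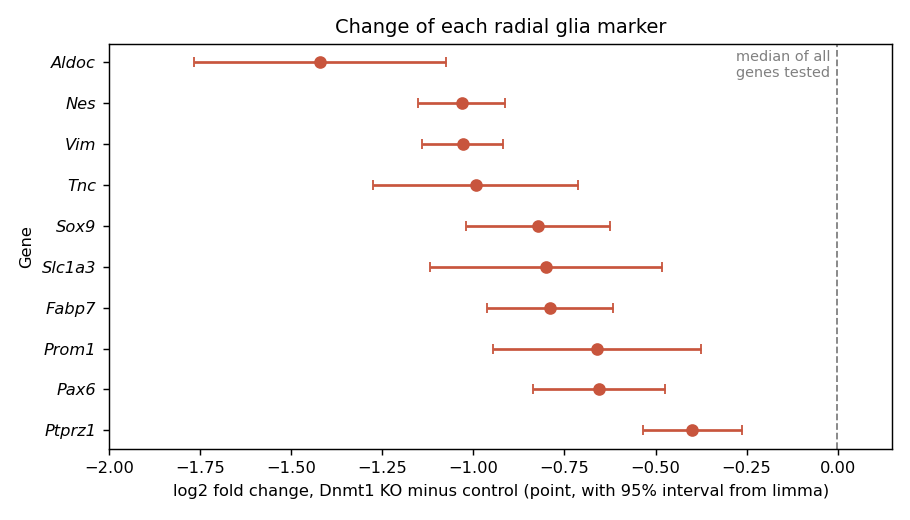
log2 fold change (*Dnmt1* KO minus control) of each radial glia marker, with 95% intervals from limma and the median of all genes tested as a dashed line. Every interval lies below 0, from *Aldoc* at -1.42 to *Ptprz1* at -0.40.

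The size of the fall was compared between markers by their intervals in the limma fit. Of the 45 pairs of markers, the 95% intervals overlapped in 33 and did not in 12. *Ptprz1* was in 6 of these 12 pairs, its interval lying above those of *Fabp7*, *Vim*, *Nes*, *Sox9*, *Aldoc* and *Tnc*. *Aldoc* was in 5, its interval lying below those of *Fabp7*, *Pax6*, *Sox9*, *Ptprz1* and *Prom1*. The remaining pairs were *Vim* and *Nes* with *Pax6*. The difference between 2 genes was not tested otherwise. With a length and GC trend removed, *Pax6* (-0.727) was nearer to *Vim* (-0.986) and *Nes* (-0.997). *Ptprz1* (-0.488) was likewise nearer to *Fabp7* (-0.741) and *Sox9* (-0.785). Intervals were not compared in that fit, so the count of pairs holds for the main fit only.

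Levels were also compared between markers per kilobase of the canonical transcript. In control libraries *Vim* (1776 ± 44.1 normalized counts per kilobase, SD, n = 2) and *Fabp7* (1295 ± 34.7) were far above the others. *Nes* followed with 462 ± 11.6, *Ptprz1* with 170 ± 5.21, *Sox9* with 138 ± 6.19 and *Pax6* with 114 ± 3.77. *Slc1a3* (76.3 ± 3.24) and *Aldoc* (72.9 ± 7.75) did not differ beyond their spread, and *Prom1* (59.2 ± 5.16) and *Tnc* (40.0 ± 1.78) were the lowest. In *Dnmt1* KO libraries the upper part of this order was the same. *Fabp7* (751 ± 85.3) was still below *Vim* (870 ± 30.5), and *Pax6* (72.4 ± 1.57) below *Sox9* (77.7 ± 2.63), each by only slightly more than their spread. *Slc1a3* (44.4 ± 11.3) and *Prom1* (37.3 ± 1.03) were within their spread, and *Aldoc* (27.0 ± 0.947) fell below *Prom1*.

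Beyond the 10 markers, 4 further lists of radial glial genes with other roles were read from the same fit. Of their 48 genes 47 were tested, of which 26 were called lower, 1 higher and 20 neither. Their median log2 fold change was -0.69, and their summed level in *Dnmt1* KO libraries was 76.5% of control.

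Of 12 transcription factors expressed in progenitors, with various roles there, 9 were called lower, 1 higher and 2 neither, with a median of -0.85. The lowest were *Hopx*, a marker of outer radial glia, with -1.86 (adjusted p = 0.0255) on few reads, and the Hippo effector *Yap1* with -1.29 (adjusted p = 0.00022). *Id4*, an inhibitor of differentiation, changed by -0.65 and *Sox21* by -0.69. *Sox2*, a core stem cell factor that also acts in interneurons, was the gene that rose. It was at 1085 and 1055 normalized counts in control and at 1429 and 1390 in *Dnmt1* KO libraries (log2 fold change 0.40, adjusted p = 0.00048). The Notch target *Hes5* was called lower at -0.84 (adjusted p = 0.00404), whereas *Hes1*, at nearly the same -0.84, was not called (adjusted p = 0.1) on lower counts.

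Of 12 genes of glial metabolism and transport, 7 were called lower and none higher, with a median of -0.54. *Apoe*, the lipid carrier, changed by -1.35 (adjusted p = 0.000162). At the other end of the called genes were *Slc1a2*, the partner of *Slc1a3* in glutamate uptake, with -0.38, *Dbi* with -0.62 and the serine synthesis gene *Psat1* with -0.77. *Glul*, encoding glutamine synthetase, was at 681 and 667 in control and at 698 and 626 in *Dnmt1* KO libraries and overlapped between genotypes.

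Of 11 tested genes of the surface and of signalling, 6 were called lower and none higher, with a median of -0.76. The endothelin receptor gene *Ednrb* changed by -1.02 (adjusted p = 0.000166) and *Fgfr3* by -0.96 (adjusted p = 0.000164). The receptors *Notch1* and *Notch2*, which keep radial glia undifferentiated, changed by -0.55 and -0.76 (adjusted p = 0.000179 and 5.18e-05), and *Pdpn* by -0.91. Of 12 genes of matrix, adhesion and polarity, 4 were called lower and none higher, with a median of -0.40. These were *Sparc* with -1.20, the apical polarity gene *Crb2* with -1.07, *Cdon* with -0.90 and *Ptn*. *Cdh2*, the N-cadherin of the apical junctions that neurons also express, was at 2850 and 2857 in control and 2821 and 2833 in *Dnmt1* KO libraries, with a log2 fold change of -0.01 (95% interval -0.12 to 0.09).

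**Figure D3:**
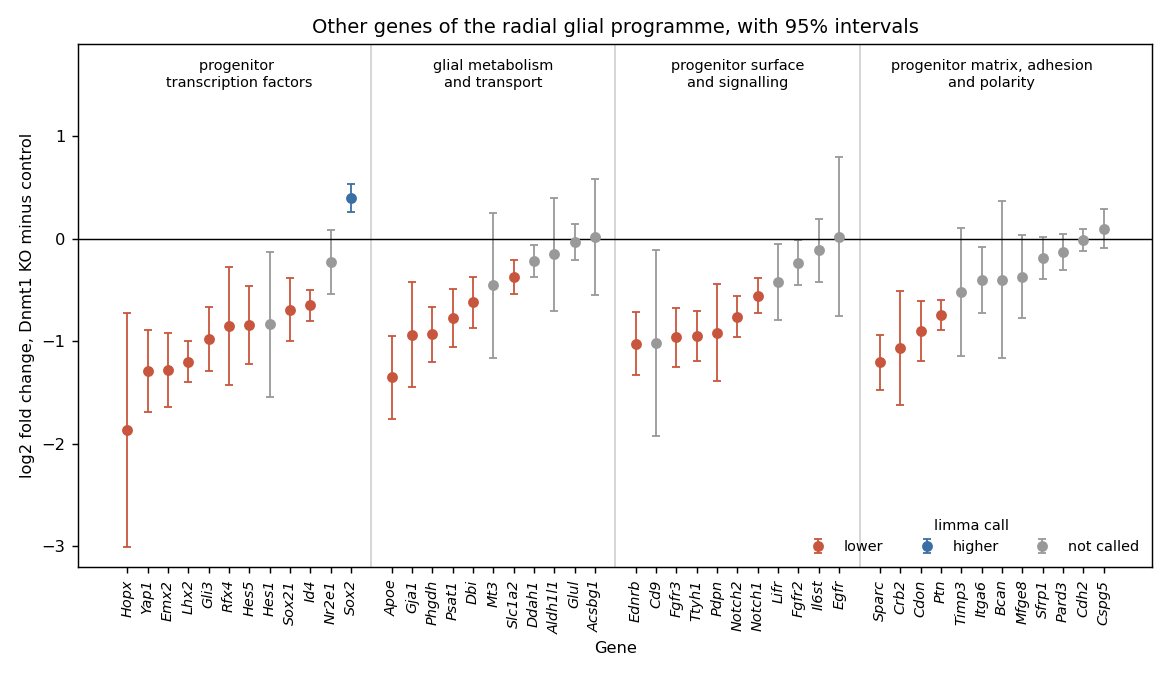
log2 fold change (*Dnmt1* KO minus control, with 95% intervals from limma) of tested genes of the 4 further radial glial lists, with 1 gene that was called lower not drawn. Red genes were called lower, the blue gene, *Sox2*, was called higher, and grey genes were not called (20).

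Of 24 close relatives of the 10 markers, 13 were tested, and 4 were called lower and none higher, with a median log2 fold change of -0.09. Their summed level in *Dnmt1* KO libraries was 93.3% of control. *Slc1a2* was counted with glial metabolism and is not among these relatives.

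Progenitors of the ventral and the dorsal forebrain express partly different sets of genes. A list of 10 genes was read for the subpallium, the ventral territory from which SST interneurons arise. Not all of them, *Gadd45g* included, are particular to it. Of the 10, 1 was called lower (*Gadd45g*, -0.74), 1 higher (*Dlx1*, 0.39) and 8 neither. The log2 fold change was negative for 9 of the 10, with a median of -0.24. Their summed level was 3630 and 3493 normalized counts in control and 3801 and 3791 in *Dnmt1* KO libraries, 106.6% of control, but *Dlx1*, the most abundant of them and expressed also in young interneurons, carried this rise. It was at 1716 and 1601 in control and at 2214 and 2140 in *Dnmt1* KO libraries. *Nkx2-1*, the factor that defines the medial ganglionic eminence, was at 369 and 346 in control and 353 and 346 in *Dnmt1* KO libraries.

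All 6 genes listed for pallial progenitors and their progeny, the dorsal cells that give rise to excitatory neurons, were called lower. Their median was -1.31, and 1 of them, *Insm1*, is not particular to these cells. The lowest were *Neurog1* with -2.17, on few reads, and *Tfap2c* with -1.45. *Neurog2*, *Emx1*, *Eomes* and *Insm1* changed by -1.40, -1.23, -1.19 and -0.34. Summed over the 6 genes, normalized counts were 1344 and 1281 in control and 669 and 636 in *Dnmt1* KO libraries, or 49.7% of control.

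All 12 genes of dividing cells were called lower, with a median of -0.64. The largest falls were those of the cyclin gene *Ccnd1* (-1.06) and the mitotic kinase gene *Aurka* (-0.88), and the smallest those of the replication genes *Pcna* (-0.34) and *Mcm2* (-0.38) and of *Mki67* (-0.50). Their summed level was 67.3% of control.

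Markers of cells other than radial glia also moved with genotype. Summed normalized counts of 10 genes of endothelial cells and pericytes were 721 and 790 in control and 328 and 334 in *Dnmt1* KO libraries (43.9%), with 9 of 10 called lower and *Kdr* the most abundant. Those of 7 genes of fibroblasts and meninges were 231 and 229 against 101 and 120, with 3 of 4 tested called lower and *Col3a1* the most abundant. Those of 7 microglial genes were 82 and 107 against 34 and 44, with 1 of 3 tested called lower and *Csf1r* the most abundant.

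Among all the lists, erythroid genes fell the furthest, to 24.3% of control (2411 and 2231 against 560 and 568), with 6 of 6 tested called lower and *Hba-a2* the most abundant. Genes of oligodendrocyte precursors summed to 213 and 183 against 146 and 119, and none of 4 tested was called. None of the genes in these 5 lists was at 0 in every library. Of 10 genes of postmitotic interneurons 8 were called higher and none lower, with a median of 0.58, and their sum was 127.9% of control. In every list the sums of both *Dnmt1* KO libraries lay outside the range of both controls. The part that other cell types, in either direction, have in the change of the radial glia markers was not tested.

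**Figure D4:**
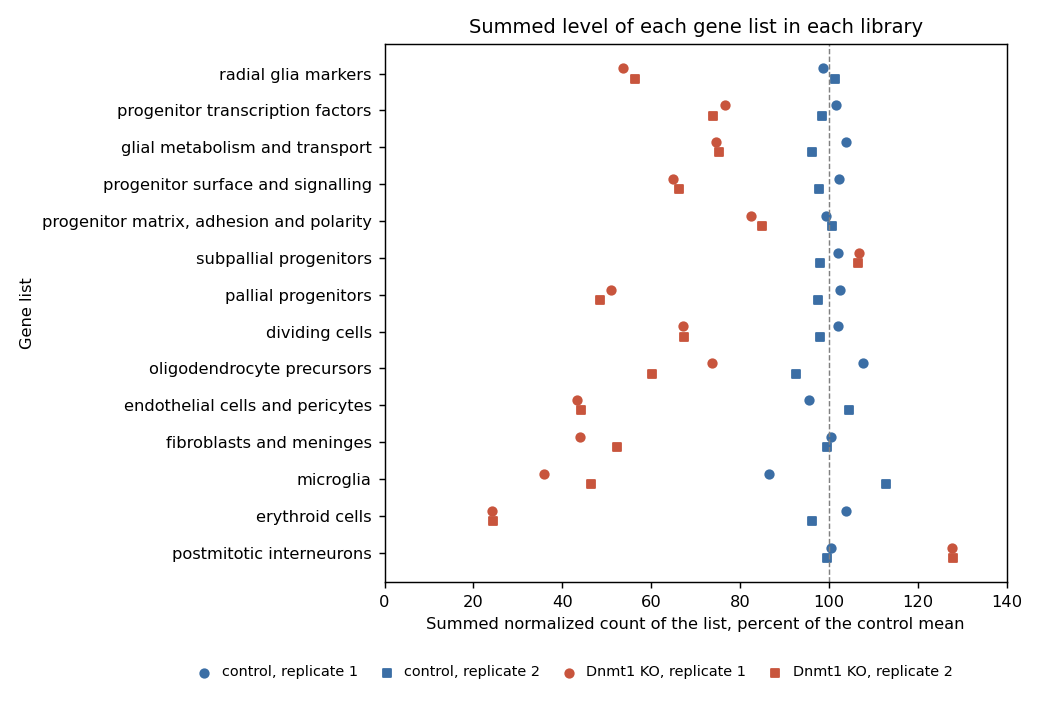
Summed normalized count of each gene list in each library, in percent of the mean of the control libraries. Radial glia markers stood at 55.1%, and the nearest lists were pallial progenitor genes (49.7%) below and progenitor surface and signalling genes (65.6%) above. Dividing cell genes stood at 67.3% and postmitotic interneuron genes at 127.9%. The subpallial progenitor sum (106.6%) lay above the controls through *Dlx1*, as 9 of its 10 genes had negative log2 fold changes.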

How the data were processed

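According to the methods and the submitters' processing notes, the authors used Trim Galore for trimming, STAR for alignment to GRCm39, Salmon for gene-level quantification and DESeq2 (version 1.32.0) for normalization. The deposited signal is this normalized count per gene and library. All 4 library columns were used, and every gene had a name. All 89965 values above 0 (100%) were whole multiples of a unit per library within 0.0001 of a read. The recovered reads were 6970247 to 8376711 per library, and the markers had 67 to 4277 reads each. Libraries differed by more than counting noise (chi-square per degree of freedom 2.71 and 2.31 within genotypes, 9.35 to 9.64 between). Each SD rests on 2 values.

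A minimum of 10 was set on the mean normalized count. The values that passed, as log2(normalized count + 1), the scale of all fold changes, went into limma 3.58.1 (R 4.3.3) with lmFit and eBayes with trend (two-sided, genotype as the only term, Benjamini-Hochberg adjustment over all 14323 genes tested). At an adjusted p below 0.05, 2476 genes were called. On the recovered reads, edgeR 4.0.16 (quasi-likelihood) called 2528 and DESeq2 1.42.0 called 1327. The scripts were tested on simulated data. Positions, canonical transcripts and promoters came from GENCODE M39 on GRCm39, which the deposited table does not name as its annotation. Of the genes tested, 38 had no transcript length there.

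The 10 markers, the further lists (4 of radial glial genes, with relatives, partners, subpallial and pallial progenitors, dividing cells, oligodendrocyte precursors, endothelial cells and pericytes, fibroblasts and meninges, microglia, erythroid cells and postmitotic interneurons) and the tests were chosen with earlier results of these data known. *Olig1*, *Olig2*, *Sox10* and *Ptn* are in 2 lists each. *Aldoa* has 2 rows, of which the more abundant was used, and 1 relative (of *Ptprz1*) was not analysed here. Named genes are the markers, some of their relatives and partners, and *Dnmt1* and *Sst*. In the radial glial, subpallial, pallial and dividing cell lists they include the 3 called genes with the highest and the 2 with the lowest log2 fold change. In the endothelial, fibroblast, microglial, erythroid and interneuron lists the most abundant gene is named. *Hes1*, *Hes5*, *Glul*, *Cdh2*, *Nkx2-1*, *Neurog2* and *Stmn2* were added after their values were seen. A gene that this rule names is not reported here.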

Additional observations from a re-analysis of the deposited data

How the results depend on the processing

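The 10 markers were recomputed in 15 other fits (pseudocounts of 0.5 and 10, count minimums of 1 and 50, TMM and quantile scaling, limma without its variance trend, edgeR, DESeq2, removal of a length and GC trend, a replicate block, and leaving out each library). All 150 log2 fold changes were negative, and 140 passed the threshold. The 10 that did not are those of limma without its variance trend, where 0 genes were called in all, hence 0 markers and 0 genes of the progenitor lists in either direction. There 3339 genes and all 10 markers had an unadjusted p below 0.05, and the markers' adjusted p ran from 0.0592 to 0.143. DESeq2 called 1327 genes against 2476, with all 10 markers among them. Without *Vim*, the most abundant marker, the summed level in *Dnmt1* KO libraries was 58.0% of control against 55.1%.

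Leaving out 1 library at a time, 1716 to 2219 genes were called, the count of markers called lower was 10 in each of these fits, that of progenitor list genes ran from 21 to 27, and the markers' median log2 fold change from -0.89 to -0.73. The genotype left with 1 library was then assumed to vary like the other. *Prom1* came nearest to the threshold, with an adjusted p of 0.0394 without control replicate 2. The replicate differences of the genotypes correlated at 0.0157 over 8418 genes, so no effect common to replicates of the same number was seen. Whether such replicates were prepared together cannot be told from this correlation. With the replicate block 2957 genes and, as lower, 10 markers and 27 genes of the progenitor lists were called. Between genotypes the log2 fold change rose by 0.0526 per doubling of transcript length, against -0.0019 and -0.0033 within genotypes. With the length and GC trend removed, *Ptprz1* was at -0.49 and *Pax6* at -0.73. The low counts of *Aldoc* and *Hopx* limit their precision.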
